A study of Bos taurus with 12 samples.

Results

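Cells sense foreign nucleic acid with a small set of proteins, and 10 genes of that set were read here from RNA sequencing counts of precursor adipocytes of cattle (Bos taurus): IFIH1, DDX58, DHX58, TLR3, ZBP1, EIF2AK2, IFI16, MAVS, TMEM173 and TBK1. They were taken by gene name, all 10 were found among 29240 gene rows, and all 10 were among the 16300 genes that passed the filter on low counts. The 12 libraries formed 4 groups of 3, and RNA was taken 48 h after the cells were transfected. OE cells received a pcDNA3.1 plasmid carrying HGFAC, the gene of the secreted protease that activates hepatocyte growth factor, and OE_NC cells received a pcDNA3.1 negative control plasmid. The si cells received an interference reagent whose target the labels do not name, and si_NC cells received its negative control. All 4 groups were therefore transfected, and no group without transfection was analysed here. The plasmid groups and the interference groups each had their own control. The labels do not say whether both transfections were run together, so the kind of nucleic acid and the run cannot be told apart.

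RNA with a double strand or an unmodified end is bound in the cytoplasm by the helicases that IFIH1 (MDA5) and DDX58 (RIG-I) encode, and DHX58 (LGP2) encodes a related helicase that tunes both. These helicases signal through MAVS on mitochondria, whereas DNA sensors such as the product of IFI16 act through TMEM173 (STING), and both routes meet at the kinase TBK1, which activates interferon regulatory factors. TLR3 encodes an endosomal receptor of double-stranded RNA, ZBP1 encodes a sensor of left-handed nucleic acid that can start cell death, and EIF2AK2 encodes the kinase PKR, which binds double-stranded RNA and halts translation. Several of these genes are themselves induced by interferon. These roles are known from human and mouse, and stromal cells such as precursor adipocytes can use the same sensors.

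Counts in genes ranged from 28944733 to 42703663 per library, and replicates of a group correlated at 0.9839 to 0.9927 (Pearson, log2 CPM). Levels are CPM, counts scaled to the library's total in genes after TMM scaling, which aligns the bulk of genes between libraries. HGFAC averaged 161 ± 26.3 CPM in OE and 0.393 ± 0.127 CPM in OE_NC (SD, n = 3 each), without separating plasmid from genomic transcripts. The libraries si replicate 3 and si_NC replicate 2 stood apart from their groups on the second principal component (24.6 and 22.3). The other 4 interference libraries were at −17.7 to −12.2, and OE_NC replicate 1 lay farthest down (−33.9). All OE libraries lay at the same end as si replicate 3 and si_NC replicate 2 (21.2 to 24.6). OE_NC replicate 2 was at −14.1 and OE_NC replicate 3 at −3.4. OE and OE_NC thus lay apart along the component that also split the interference replicates. Its part in the changes in OE was not tested. Libraries si replicate 3, si_NC replicate 2 and OE_NC replicate 1 also stood at an end of their group for most sensing genes. OE_NC replicate 1 was the lowest of its 3 for 9 of the 10 genes (39.1% of all tested genes), and OE_NC replicate 3 was the highest for 9 (36.6% of all). For the interference groups, si replicate 3 was the highest for 8 (39.9% of all) and si_NC replicate 2 for 7 (38.3% of all). In si_NC, replicate 1 was the lowest for 8 (33.5% of all). Whether replicates came from separate cultures is not stated, so p-values measure only the spread between these libraries, which may be technical. In bulk RNA, fewer cells with a transcript and less of it per cell cannot be told apart.

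Markers of stromal cells were abundant as a list, and 2 of them were scarce. The 12 listed stromal markers summed to 17900 to 19230 CPM in OE, 14210 to 18760 CPM in OE_NC, 18380 to 23030 CPM in si and 13680 to 18290 CPM in si_NC. The collagens COL1A2 and COL1A1 and the filament protein VIM made up most of that sum (8266, 4373 and 5222 CPM on average in OE). DLK1 and CD34, markers of precursor cells, stayed under the filter with 30 and 12 counts over 12 libraries, and CD34 was at 0 in all libraries of si. The 12 immune markers summed to 9.87 to 12.6 CPM in OE, 11.9 to 12.3 CPM in OE_NC, 11.9 to 13.2 CPM in si and 10.8 to 13.2 CPM in si_NC. PTPRC, which marks leukocytes, was at 0 in all libraries of OE_NC and si_NC, and TYROBP in all of OE and si_NC. LYZ was at 0 in all libraries of si_NC, CD3E in all of si, and these immune sums overlapped between all 4 groups. The 8 endothelial markers (59.1 to 65.2 CPM in OE, 64.1 to 84.1 CPM in OE_NC, 55.7 to 78.4 CPM in si, 53.8 to 77.6 CPM in si_NC) and 7 mature adipocyte markers (38.4 to 41.4, 41.0 to 45.5, 40.2 to 45.5 and 36.3 to 51.2 CPM, in the same order) summed to far less than the stromal markers. FLT1 made up nearly all of the endothelial sum (57.9 ± 3.83 CPM in OE, 69.0 ± 10.4 CPM in OE_NC, 64.7 ± 11.4 CPM in si and 65.4 ± 13.5 CPM in si_NC; SD, n = 3 each). VWF averaged at most 1.70 CPM in a group, and TIE1 and ESAM were under the filter.

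Per exon length the sensing genes spanned a wide range. The level is given as RPKM, read counts scaled to kilobases of exon and to the library total. TBK1 (8.82 ± 0.651 RPKM) and EIF2AK2 (6.45 ± 0.780 RPKM) were the most abundant (mean ± SD over 12 libraries), and TBK1 exceeded EIF2AK2 in 12 of 12 libraries. IFI16 (2.06 ± 0.519 RPKM) and MAVS (1.91 ± 0.354 RPKM) followed with overlapping ranges. IFI16 was above MAVS in 6 of 12 libraries, which were all the plasmid libraries, and below it in every interference library. It averaged 2.43 RPKM against 1.75 RPKM for MAVS with plasmid, and 1.69 RPKM against 2.07 RPKM with interference. DDX58 (0.953 ± 0.194 RPKM) and TLR3 (0.929 ± 0.201 RPKM) were not separated, DDX58 being above TLR3 in 5 of 12. TMEM173 (0.490 ± 0.157 RPKM), IFIH1 (0.483 ± 0.301 RPKM) and DHX58 (0.377 ± 0.182 RPKM) overlapped each other. ZBP1 was the lowest at 0.0950 ± 0.0730 RPKM, below DHX58 in 12 of 12 libraries and at percentile 5.30 of all tested genes, whereas TBK1 stood at percentile 70.8. The scarce genes varied most across libraries: the coefficient of variation of CPM was 77.7% for ZBP1, 63.1% for IFIH1 and 48.3% for DHX58, against 6.69% for TBK1 and 12.4% for EIF2AK2.

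**Figure D1:**
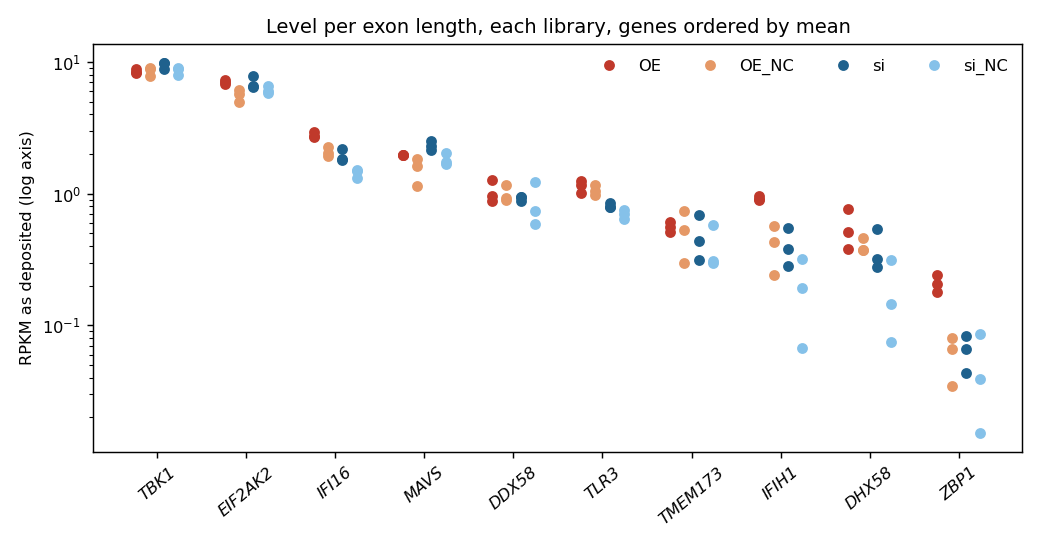
Level of the 10 sensing genes in RPKM (log axis) in each of the 12 libraries, coloured by group, with genes ordered by their mean from TBK1 at 8.82 RPKM to ZBP1 at 0.0950 RPKM. TBK1 and EIF2AK2 sit above all other sensing genes in every library, and the groups spread most for IFIH1, DHX58 and ZBP1.

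With the HGFAC plasmid, 3 of the 10 sensing genes rose against the control plasmid and 0 fell: ZBP1, IFI16 and EIF2AK2 (edgeR adjusted p under 0.05; 2.22% of all tested genes were called higher, 2.25% lower and 4.47% in either direction). With interference, 0 of 10 passed the test against si_NC (0.92% of all tested genes were called higher, 1.62% lower and 2.54% in either direction). Between the plasmid groups and the interference groups, 5 of the 10 were higher with plasmid: IFIH1, DHX58, TLR3, ZBP1 and IFI16 (11.4% of all tested genes were called higher, 24.2% in either direction). The plasmid groups include OE and the interference groups include si, so this comparison also carries the changes with HGFAC and with the reagent. IFIH1, ZBP1 and IFI16 averaged 1.479, 0.374 and 8.749 CPM in OE_NC, against 1.448, 0.402 and 8.245 CPM in si. Between the controls alone only IFI16 and TLR3 passed, both higher in OE_NC (9.49% of all tested genes were called higher). The genes that carry the signal onward, MAVS, TMEM173 and TBK1, did not pass in any of these comparisons. MAVS passed in OE, with plasmid against interference and between the controls under some of the other settings given with its values. TMEM173 passed with plasmid against interference without si replicate 3 and si_NC replicate 2 together. The split of calls over all genes moved with the scaling. In OE 362 genes were higher and 366 lower, against 159 and 653 with library totals in place of TMM, 123 and 489 with limma on log2 RPKM (1 added), 99 and 424 with 0.1 added, and 300 and 176 with the exon length trend removed. In si 150 were higher and 264 lower, against 298 and 106, 245 and 84, and 242 and 82 with library totals and limma in that order.

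**Figure D2:**
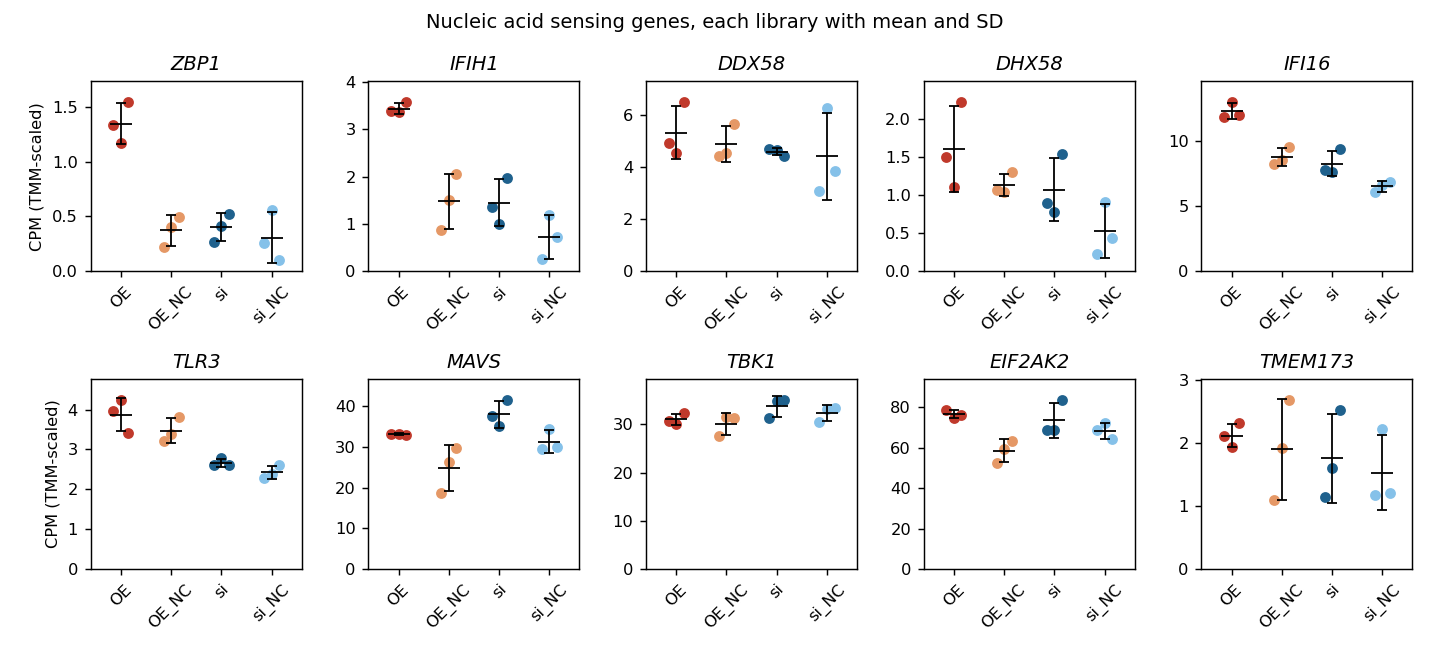
CPM of each sensing gene in every library (points) with the mean and SD of 3 libraries (bars), for OE, OE_NC, si and si_NC. The 3 OE libraries stand above the 3 OE_NC libraries for ZBP1, IFIH1, IFI16, MAVS and EIF2AK2, and the 6 plasmid libraries stand above the 6 interference libraries for TLR3.

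Among the cytoplasmic RNA helicases, IFIH1 had the largest range. IFIH1, the sensor of long double-stranded RNA (chromosome 2, 34111332 to 34166970, plus strand, 16 merged exons of 3674 bases in the coordinates of the count table), was at 3.38, 3.36 and 3.57 CPM in OE, against 0.873, 1.52 and 2.05 CPM in OE_NC. It was at 1.36, 1.01 and 1.98 CPM in si, against 0.262, 1.20 and 0.735 CPM in si_NC. The 3 OE libraries were close together and above all 9 others, whereas the other 3 groups overlapped. The log2 change in OE was 1.22 ± 0.35 (SE), or 2.32-fold, with an edgeR adjusted p of 0.0601 that missed the threshold. It passed in 6 of 10 other settings with all libraries of both groups kept (DESeq2 Wald test, with an adjusted p of 0.0159, no filter, replicate block, limma with 1 added, halved counts and only the groups compared), and without OE_NC replicate 3 edgeR gave 0.047. In si the log2 change was 0.99 ± 0.41 (edgeR adjusted p = 0.21). Plasmid groups averaged 2.46 ± 1.14 CPM and interference groups 1.09 ± 0.583 CPM (SD, n = 6 each), a log2 difference of 1.14 ± 0.27 (edgeR adjusted p = 0.00732) that held with each of the 12 libraries left out in turn. Between the controls alone, OE_NC exceeded si_NC by 1.03 ± 0.41 on the log2 scale without passing (edgeR adjusted p = 0.0935), and by 1.56 without si_NC replicate 2 (edgeR adjusted p = 0.0265). Without OE_NC replicate 1 this difference also passed, at 1.29 (edgeR adjusted p = 0.0468).

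DDX58, the sensor of RNA with a free triphosphate end, was the most abundant of these helicases per exon length. This gene (chromosome 8, 11559690 to 11606155, plus strand, 18 merged exons of 5049 bases) was at 4.93, 4.56 and 6.50 CPM in OE, against 4.45, 4.55 and 5.67 CPM in OE_NC. It was at 4.70, 4.68 and 4.43 CPM in si, against 3.11, 6.29 and 3.87 CPM in si_NC. All groups overlapped, and si_NC replicate 2 held the second highest value of all libraries. The log2 changes were 0.12 ± 0.21 in OE, with a 95% interval of −0.33 to 0.57, and 0.06 ± 0.22 in si, with an interval of −0.40 to 0.52. Neither passed (edgeR adjusted p = 0.774 and 0.908), and changes of a size within those intervals are not excluded.

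DHX58, which has no signalling domain of its own and modulates the other helicases (chromosome 19, 42237042 to 42247612, minus strand, 14 merged exons of 2887 bases), was at 1.50, 1.11 and 2.22 CPM in OE, against 1.06, 1.04 and 1.30 CPM in OE_NC. It was at 0.897, 0.777 and 1.54 CPM in si, against 0.229, 0.914 and 0.434 CPM in si_NC. Both pairs overlapped, and si_NC held the 2 lowest libraries, which rest on 7 and 13 counts. The log2 changes of 0.50 ± 0.37 in OE and 1.03 ± 0.43 in si did not pass (edgeR adjusted p = 0.446 and 0.207). Without si_NC replicate 2 the change in si passed, at 1.67 (edgeR adjusted p = 0.0428). DHX58 averaged 1.37 ± 0.450 CPM with plasmid and 0.799 ± 0.454 CPM with interference (SD, n = 6 each; log2 0.85 ± 0.28, edgeR adjusted p = 0.0394). That call held only without OE replicate 2, si replicate 3 or si_NC replicate 2, and ended without any of the other 9 libraries (edgeR adjusted p 0.0582 to 0.111). Between the controls alone, OE_NC exceeded si_NC by 1.12 ± 0.43 on the log2 scale without passing (edgeR adjusted p = 0.0788). The OE_NC libraries stood above the si_NC libraries without overlap (18.4% of all tested genes did). This difference passed in 3 of 11 other settings and without si_NC replicate 2.

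TLR3, the endosomal receptor (chromosome 27, 16176313 to 16187575, plus strand, 5 merged exons of 3351 bases), was higher in the plasmid groups, and passed the test in neither treatment. It was at 3.96, 4.24 and 3.42 CPM in OE, against 3.22, 3.39 and 3.82 CPM in OE_NC. It was at 2.61, 2.79 and 2.61 CPM in si, against 2.29, 2.39 and 2.60 CPM in si_NC. All 6 plasmid libraries were above all 6 interference libraries, which held for 3.35% of all tested genes, and TLR3 was the only sensing gene of the 10 to do so. Plasmid groups averaged 3.68 ± 0.396 CPM and interference groups 2.55 ± 0.179 CPM (SD, n = 6 each; log2 0.53 ± 0.10, 1.44-fold, edgeR adjusted p = 0.00221), and the call held with each of the 12 libraries left out. Between controls OE_NC exceeded si_NC by 0.52 ± 0.15 (log2; edgeR adjusted p = 0.0244). That call ended without OE_NC replicate 2 (edgeR adjusted p = 0.0582), OE_NC replicate 3 (0.0789), si_NC replicate 1 (0.0794) or si_NC replicate 2 (0.054). The log2 changes of TLR3 were 0.16 ± 0.14 in OE and 0.14 ± 0.15 in si (edgeR adjusted p = 0.535 and 0.671).

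ZBP1, the sensor of left-handed nucleic acid (chromosome 13, 58563680 to 58577423, plus strand, 10 merged exons of 6371 bases), had 48, 41 and 50 counts in OE, against 8, 16 and 18 counts in OE_NC. These counts came to 1.33, 1.17 and 1.54 CPM in OE, against 0.218, 0.404 and 0.498 CPM in OE_NC. It was at 0.272, 0.411 and 0.523 CPM in si, against 0.262, 0.562 and 0.10 CPM in si_NC. Every OE library stood above all 9 others, and OE_NC, si and si_NC overlapped throughout. The log2 change in OE was 1.84 ± 0.43, a rise of 3.57-fold with a 95% interval of 1.90-fold to 6.72-fold (edgeR adjusted p = 0.0322). In si it was 0.39 ± 0.50 (edgeR adjusted p = 0.724). The difference between plasmid and interference groups was 1.01 ± 0.33 on the log2 scale (edgeR adjusted p = 0.0371), while the controls alone did not pass: OE_NC averaged 0.374 ± 0.142 CPM and si_NC 0.308 ± 0.235 CPM (SD, n = 3 each; log2 0.29 ± 0.51, edgeR adjusted p = 0.731). The plasmid call held only without OE_NC replicate 1, si replicate 3 or si_NC replicate 2 (edgeR adjusted p 0.0577 to 0.0978 without any of the other 9).

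EIF2AK2, the double-stranded RNA kinase PKR (chromosome 11, 19556767 to 19597286, minus strand, 17 merged exons of 10723 bases), rose in OE. It was at 78.8, 74.8 and 76.1 CPM in OE, against 52.5, 59.5 and 63.5 CPM in OE_NC. It was at 68.5, 68.7 and 83.6 CPM in si, against 68.6, 72.1 and 64.4 CPM in si_NC. The OE libraries were above all OE_NC libraries, while OE_NC was the lowest group and lay below si_NC in every library. The log2 change in OE was 0.39 ± 0.09, or 1.31-fold (1.14 to 1.50 at 95%; edgeR adjusted p = 0.0342), and in si it was 0.11 ± 0.09 (edgeR adjusted p = 0.572). OE_NC was lower than si_NC by a log2 difference of −0.23 ± 0.09 that did not pass (edgeR adjusted p = 0.0983). Between plasmid and interference groups the log2 difference was −0.08 ± 0.06 (edgeR adjusted p = 0.378). The call in OE ended with library totals (adjusted p = 0.0536), with limma on log2 RPKM (0.0815 with 1 added and 0.0818 with 0.1 added) and with the exon length trend removed (0.0723). Of its exon bases, 1838 are shared with GPATCH11 on the opposite strand, which averaged 224 CPM, against 69.2 CPM for EIF2AK2. The libraries were stranded, but the strand setting of the counting is not given in the sources used here, so reads of the shared stretch may not be separated.

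IFI16, a sensor of DNA in nucleus and cytoplasm (chromosome 3, 10700680 to 10747671, plus strand, 9 merged exons of 4334 bases), was higher both with the HGFAC plasmid and with plasmid against interference. It was at 11.8, 12.9 and 11.9 CPM in OE, against 8.24, 8.52 and 9.49 CPM in OE_NC. It was at 7.78, 7.61 and 9.35 CPM in si, against 6.05, 6.61 and 6.81 CPM in si_NC. OE stood above all other libraries, si_NC below all others, and OE_NC and si overlapped between them. The log2 change in OE was 0.48 ± 0.11, or 1.40-fold (1.19 to 1.64 at 95%; edgeR adjusted p = 0.0301). The call ended with limma on log2 RPKM (adjusted p = 0.0504 with 1 added and 0.0636 with 0.1 added). In si the log2 change was 0.34 ± 0.11 and did not pass (edgeR adjusted p = 0.117), although the 3 si libraries were above the 3 si_NC libraries. Plasmid groups averaged 10.5 ± 1.99 CPM and interference groups 7.37 ± 1.17 CPM (SD, n = 6 each; log2 0.50 ± 0.08, edgeR adjusted p = 0.000463), and the call held with each of the 12 libraries left out. The controls alone gave a log2 difference of 0.43 ± 0.11 for OE_NC over si_NC (edgeR adjusted p = 0.016), which ended without OE_NC replicate 3 (0.0566) or si_NC replicate 1 (0.0647).

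The adaptor MAVS, which relays the helicases (chromosome 13, 51325469 to 51351362, minus strand, 9 merged exons of 16641 bases), had higher values in both treated groups than in their controls. It was at 33.3, 33.2 and 32.9 CPM in OE, against 18.7, 26.2 and 29.8 CPM in OE_NC. It was at 37.5, 35.1 and 41.6 CPM in si, against 29.4, 34.5 and 30.1 CPM in si_NC. Each treated group stood above its own control without overlap, and the OE_NC libraries spread most. The log2 changes were 0.41 ± 0.13 in OE (edgeR adjusted p = 0.0797) and 0.28 ± 0.13 in si (edgeR adjusted p = 0.262). In OE the DESeq2 Wald test gave an adjusted p of 0.0407. Leaving out 1 library gave log2 changes in OE of 0.23 (without OE_NC replicate 1, edgeR adjusted p = 0.279) to 0.54 (without OE_NC replicate 3, where it passed with an edgeR adjusted p of 0.0376). Plasmid groups averaged 29.0 ± 5.77 CPM and interference groups 34.7 ± 4.58 CPM (SD, n = 6 each), a log2 difference of −0.26 ± 0.09 at the edge of the threshold (edgeR adjusted p = 0.0506). It passed in 6 of 11 other settings, which were the size factors and the Wald test of DESeq2 (adjusted p = 0.0496 and 0.0332), no filter, the replicate block, halved counts and the exon length trend removed. It also passed without OE_NC replicate 3 (edgeR adjusted p = 0.0142) or si replicate 2 (0.0447). Between the controls alone, OE_NC was lower than si_NC by a log2 difference of −0.33 ± 0.13 that did not pass (edgeR adjusted p = 0.0917). That difference passed with no filter and without OE_NC replicate 3.

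The adaptor TMEM173 and the kinase TBK1 gave no call with all libraries kept. TMEM173 (chromosome 7, 50732084 to 50743011, minus strand, 10 merged exons of 3733 bases) was at 2.11, 1.94 and 2.31 CPM in OE, against 1.09, 1.92 and 2.68 CPM in OE_NC, and at 1.14, 1.60 and 2.53 CPM in si, against 1.18, 2.21 and 1.20 CPM in si_NC. All groups overlapped, and the log2 changes had wide intervals, −0.55 to 0.87 in OE and −0.54 to 0.95 in si. Between plasmid and interference groups the log2 difference of TMEM173 was 0.29 ± 0.24 (edgeR adjusted p = 0.41). It was called higher with plasmid only without si replicate 3 and si_NC replicate 2 together. TMEM173 shares 1416 of its exon bases with SMIM33 on the opposite strand, at 1.07 CPM, against 1.83 CPM for TMEM173. TBK1 (chromosome 5, 49271960 to 49315792, minus strand, 21 merged exons of 3602 bases) was at 30.7, 30.2 and 32.3 CPM in OE, against 27.5, 31.5 and 31.3 CPM in OE_NC. It was at 31.2, 34.8 and 35.1 CPM in si, against 30.4, 33.3 and 33.4 CPM in si_NC. TBK1 varied least of the 10 genes, and its narrow intervals bound the log2 change to between −0.13 and 0.22 in OE and between −0.12 and 0.24 in si.

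**Figure D3:**
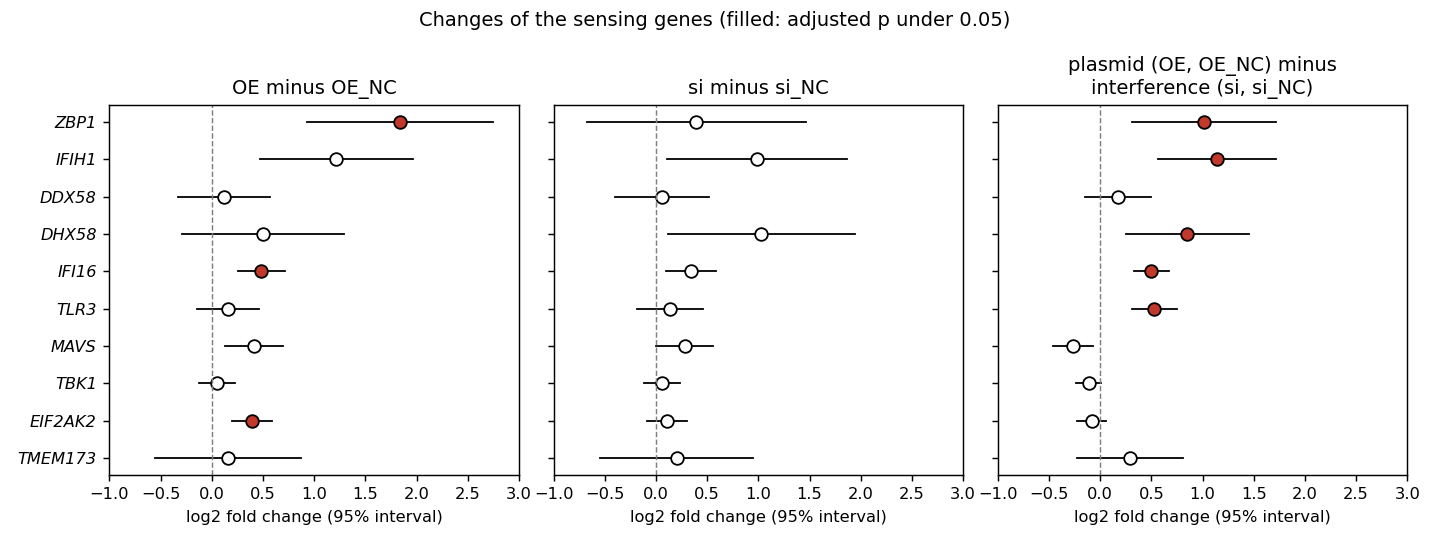
Log2 fold change with its 95% interval for each sensing gene in OE minus OE_NC, si minus si_NC and plasmid (OE and OE_NC) minus interference (si and si_NC); filled circles passed an edgeR adjusted p of 0.05. In OE minus OE_NC, ZBP1 at 1.84 lies farthest right, no interval of a called gene crosses 0, and in si minus si_NC no gene is filled.

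Read together over the genes, the overexpression contrast held 10 of 10 positive log2 changes (49.3% of all tested genes were positive), with a median of 0.40, against −0.005 over all genes. The OE and OE_NC libraries did not overlap, with OE higher, for 5 of the 10 (17.4% of all tested genes): ZBP1, IFIH1, IFI16, MAVS and EIF2AK2. These 5 also had an unadjusted edgeR p under 0.05 (22.9% of all tested genes), and the DESeq2 Wald test called 5 of the 10, adding IFIH1 and MAVS. The edgeR calls of ZBP1, IFI16 and EIF2AK2 each ended without any of the 3 OE libraries and without OE_NC replicate 1 or OE_NC replicate 2 (edgeR adjusted p 0.0696 to 0.151). They held without OE_NC replicate 3 (edgeR adjusted p 0.0356 to 0.0401). Over these 6 fits the log2 changes were 1.56 to 2.07 for ZBP1, 0.43 to 0.53 for IFI16 and 0.30 to 0.43 for EIF2AK2.

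In the interference contrast 10 of 10 log2 changes were positive as well (54.0% of all tested genes), with a median of 0.24, against 0.025 over all genes. IFIH1, DHX58, IFI16 and MAVS, 4 of the 10, had an unadjusted edgeR p under 0.05 (18.9% of all tested genes), and 0 passed after adjustment with edgeR and with DESeq2. The si libraries stood above si_NC without overlap for IFI16, TLR3 and MAVS, 3 of the 10 (10.2% of all tested genes). Without si replicate 3 and si_NC replicate 2, which stand apart, 0 of the 10 passed. The difference between the overexpression and the interference change was tested for every gene, and 0 of the 10 differed (8.41% of all tested genes did, 4.29% higher and 4.12% lower; 700 and 671 genes, against 265 and 1269 with library totals, 264 and 1161 with limma and 1 added, and 250 and 1147 with 0.1 added), with 7 of 10 differences positive (47.4% of all). The widest gap was that of ZBP1, with a difference of log2 changes of 1.44 ± 0.67 (95% interval 0.02 to 2.87, edgeR adjusted p = 0.198). For EIF2AK2 it was 0.28 ± 0.13 (95% interval 0.01 to 0.56, edgeR adjusted p = 0.195). Of 12 fits with 1 library left out, only that without si replicate 3 gave a call for EIF2AK2. With all libraries, ZBP1 and EIF2AK2, 2 of the 10, reached an unadjusted edgeR p under 0.05 (24.4% of all tested genes).

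Between plasmid and interference groups the median log2 difference over the sensing genes was 0.40, against 0.014 over all genes, with 7 of 10 positive (52.1% of all tested genes) and 6 of 10 at an unadjusted edgeR p under 0.05 (36.9% of all). The 5 called genes, IFIH1, DHX58, TLR3, ZBP1 and IFI16, all encode proteins that bind nucleic acid, as do DDX58 and EIF2AK2, which did not pass. For IFIH1, TLR3 and IFI16 the call held without each library in turn. The share of genes called in this contrast is large, so 5 of 10 stands against 24.2% of all tested genes. The OE and si libraries are part of it, so the changes with HGFAC and with the reagent enter these values. Between the controls alone, 2 of 10 were called, IFI16 and TLR3, with OE_NC higher (9.49% of all tested genes were called higher and 19.7% in either direction). Over all genes 1547 were higher and 1668 lower there, against 2298 and 944 with library totals, 2288 and 901 with limma and 1 added, and 2255 and 880 with 0.1 added. There 7 of 10 values were positive (52.3% of all tested genes) and 6 of 10 had an unadjusted edgeR p under 0.05 (34.1% of all). The calls came to 4 of 10 without si replicate 3 and si_NC replicate 2, which stand apart. This contrast shares its OE_NC and si_NC libraries with the others. Markers also differed between these controls: the 7 epithelial markers summed to 3.61 to 4.39 CPM in OE_NC and 1.94 to 2.50 CPM in si_NC, with 3.52 to 4.87 CPM in OE and 3.45 to 4.68 CPM in si. EPCAM was at 0 in all libraries of OE_NC and ESRP1 in all of si_NC. Of 10 tested stromal markers 2 were higher in OE_NC than in si_NC, THY1 and ZNF423, and 0 were lower, with a median log2 difference of 0.10, against 0.02 over all genes. THY1 averaged 20.7 ± 0.803 CPM in OE_NC and 9.22 ± 2.37 CPM in si_NC (SD, n = 3 each; log2 1.17 ± 0.14, edgeR adjusted p = 0.000151). Their part in the result was not tested.

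**Figure D4:**
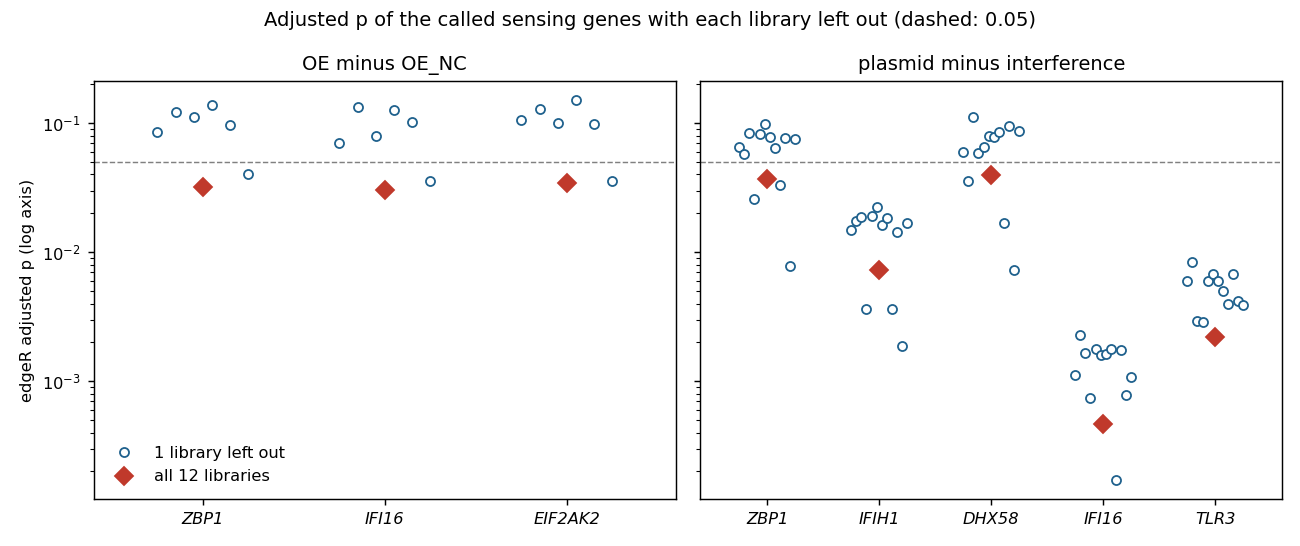
EdgeR adjusted p (log axis) of each called sensing gene with all 12 libraries (diamonds) and with each library left out in turn (circles), for OE minus OE_NC and for plasmid minus interference; the dashed line marks 0.05. For ZBP1, IFI16 and EIF2AK2 in OE, 5 of 6 circles lie above the line, whereas for IFIH1, IFI16 and TLR3 in the plasmid contrast all 12 lie below it.

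Genes around the sensors were read from lists of the pathway. Of 9 tested further sensors, 0 passed in si with edgeR (2.54% of all tested genes did), and 1 had an unadjusted p under 0.05 (18.9% of all tested genes). The OAS genes, which encode sensors of double-stranded RNA, stayed under the filter on low counts: OAS1Y summed to 22 counts in OE, 18 in OE_NC, 12 in si and 6 in si_NC. TLR7, TLR8 and TLR9, endosomal receptors of leukocytes, were also under the filter, with 29, 24 and 30 counts over 12 libraries.

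Of 20 adaptors, kinases and ubiquitin ligases of sensing, 2 rose in OE and 0 fell (2.22% of all tested genes were called higher and 2.25% lower). TRIM25, the ubiquitin ligase that activates RIG-I, averaged 84.2 ± 4.30 CPM in OE and 64.7 ± 4.06 CPM in OE_NC (SD, n = 3 each; log2 0.38 ± 0.07, edgeR adjusted p = 0.0172). RIPK1, a kinase of cell death and inflammation that binds ZBP1, averaged 65.6 ± 1.66 CPM in OE and 49.3 ± 3.15 CPM in OE_NC (log2 0.41 ± 0.08, edgeR adjusted p = 0.0202). In si 3 of 20 fell and 0 rose (1.62% of all tested genes were called lower and 0.92% higher). TRIM25 (log2 −0.33 ± 0.07, edgeR adjusted p = 0.0296) and RIPK1 (log2 −0.36 ± 0.08, edgeR adjusted p = 0.0356) fell there. So did TANK, a scaffold of TBK1 (log2 −0.31 ± 0.08, edgeR adjusted p = 0.0414), whose log2 change of 0.19 in OE had not passed (edgeR adjusted p = 0.142). The difference of the changes passed for each of them (log2 0.71, 0.77 and 0.50; edgeR adjusted p = 0.00219, 0.00283 and 0.0117). Both controls enter those values: TRIM25 averaged 64.7 ± 4.06 CPM in OE_NC and 89.8 ± 4.16 CPM in si_NC, and RIPK1 49.3 ± 3.15 CPM in OE_NC and 64.0 ± 5.26 CPM in si_NC. With plasmid against interference 1 of 20 was higher, the antibody receptor and ubiquitin ligase TRIM21 (log2 0.67 ± 0.16, edgeR adjusted p = 0.00689), and 4 were lower (11.4% of all tested genes were called higher and 12.8% lower). The lower ones included TRIM56 (log2 −0.31 ± 0.04, edgeR adjusted p = 0.000249), TICAM1, the adaptor of TLR3 (log2 −0.35 ± 0.08, edgeR adjusted p = 0.00751), and IKBKB (log2 −0.20 ± 0.06, edgeR adjusted p = 0.0251).

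Downstream, 2 of 14 interferon regulatory factors, STATs and receptors rose in OE and 0 fell (2.22% of all tested genes were called higher and 2.25% lower): IRF1 (log2 1.05 ± 0.12, edgeR adjusted p = 0.00081) and IRF9 (log2 0.58 ± 0.14, edgeR adjusted p = 0.0394). IRF9, a DNA-binding factor of the interferon response, averaged 13.6 ± 0.882 CPM in OE and 9.08 ± 1.89 CPM in OE_NC (SD, n = 3 each). Of 25 interferon-stimulated effectors 7 rose in OE and 0 fell (against the same 2.22% and 2.25%), with a median log2 change of 0.49, against −0.005 over all genes. PARP14 averaged 63.2 ± 1.02 CPM in OE and 36.9 ± 8.03 CPM in OE_NC (log2 0.78 ± 0.17, edgeR adjusted p = 0.0275), and PARP9, its partner, 6.53 ± 0.527 CPM in OE and 3.70 ± 0.831 CPM in OE_NC (log2 0.82 ± 0.21, edgeR adjusted p = 0.0422). GBP4 and GBP5, guanylate-binding proteins, rose by log2 0.91 ± 0.18 and 1.50 ± 0.30 (edgeR adjusted p = 0.019 for both). In si 0 of the 25 effectors passed with edgeR (2.54% of all tested genes did), and 1 had an unadjusted p under 0.05 (18.9% of all). Among the 14 regulators and receptors in si the counts were also 0 and 1, against the same shares. With plasmid against interference 3 of the 14 were higher and 0 lower, and 4 of the 25 effectors were higher and 2 lower (11.4% of all tested genes were called higher and 12.8% lower), with IFITM3 higher (log2 0.68, edgeR adjusted p = 0.000211) and HERC6 lower (log2 −0.57, edgeR adjusted p = 0.000135). The interferons themselves were near the limit of detection: IFNB1 summed to 6 counts in OE, 8 in OE_NC, 2 in si and 2 in si_NC. Of the 4 ligands and cytokines that passed the filter, 0 passed the test in OE and 0 in si (4.47% and 2.54% of all tested genes did). In each contrast 1 had an unadjusted edgeR p under 0.05 (22.9% and 18.9% of all). In OE it was CXCL11, which was lower (0.174 CPM in OE and 0.446 CPM in OE_NC, log2 −1.34 ± 0.40, edgeR adjusted p = 0.0647). In si it was CCL2, which was higher (log2 0.74 ± 0.23, edgeR adjusted p = 0.0977). Of the 4 log2 changes in OE, 1 was positive (49.3% of all tested genes were), and their median was −0.46, against −0.005 over all genes. CXCL11 was lower with plasmid than with interference (log2 −1.07 ± 0.26, edgeR adjusted p = 0.00816), where 12.8% of all tested genes were called lower.

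**Figure D5:**
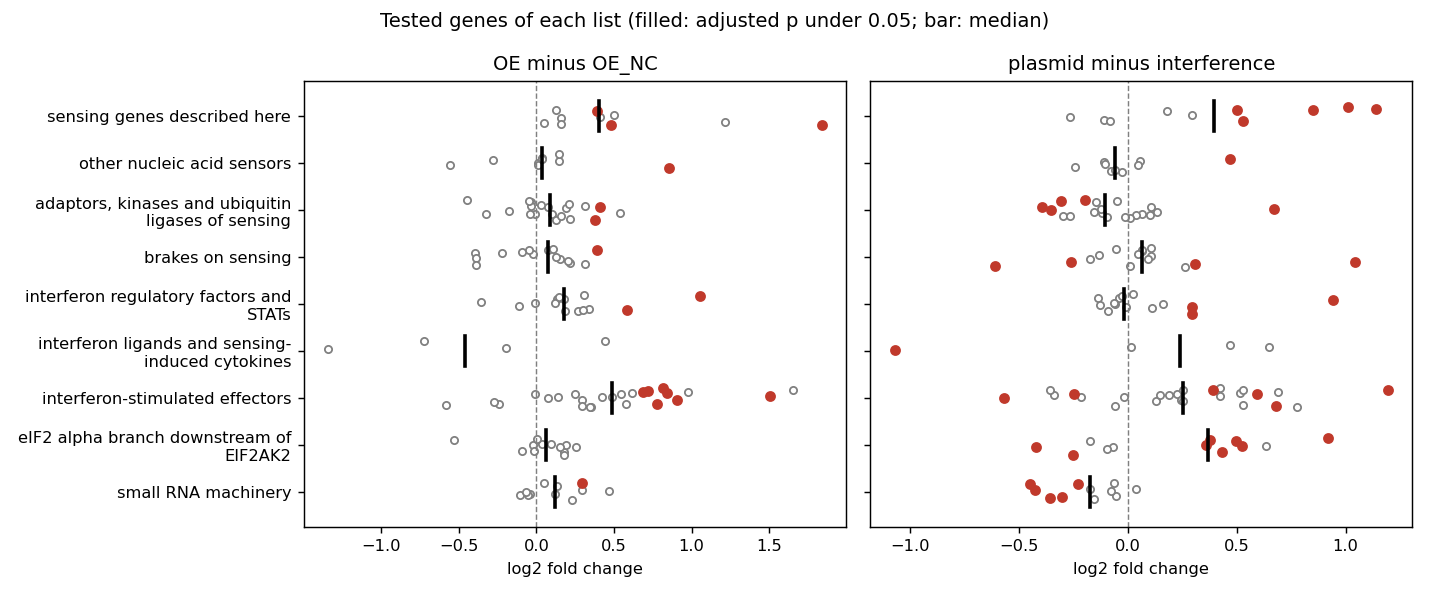
Log2 change of every tested gene in each pathway list (circles; filled where the edgeR adjusted p is under 0.05) with the list median (bar), for OE minus OE_NC and plasmid minus interference. In OE minus OE_NC the filled circles lie right of 0, with 7 of 25 among the effectors, and in plasmid minus interference filled circles lie on both sides of 0.

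The genes whose log2 CPM followed each called sensing gene most closely over the 12 libraries were named as a description, since the libraries fall into 4 groups and share depth and scaling. For IFIH1 these were SPARC, CTNNB1 and EHD3 (Pearson r 0.971, 0.970 and 0.968), with r of 0.953, 0.947 and 0.914 after each group mean was taken out. For DHX58 they were PALD1, LGALS4 and GLIPR2 (0.947, 0.944 and 0.937), and for EIF2AK2 CRYBG3, SECISBP2L and SETD7 (0.962, 0.955 and 0.954). For IFI16 they were CUX1, TMEM43 and CASK (0.979, 0.963 and 0.950), with r of 0.899, 0.669 and 0.454 within groups. For TLR3 they were CCDC39, SELENOV and PKNOX2 (0.952, 0.951 and 0.951), with r of 0.511, 0.447 and 0.529 within groups. For ZBP1 they were HECA, HBP1 and ERAP2 (0.951, 0.951 and 0.950). Likeness within groups stayed at 0.855 or above for the genes named with IFIH1, DHX58, EIF2AK2 and ZBP1, and was 0.669 or below for all but CUX1 of those named with IFI16 and TLR3.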

How the data were processed

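RNA was measured in 12 libraries of cattle precursor adipocytes, grouped by sample title, and every table column matched a title (0 columns unmapped). Per the labels' protocols, stranded libraries were made from polyadenylated RNA. The authors deposited raw counts per gene and RPKM; recomputing RPKM from the counts gave values within a relative 6.6e-14. Per the submitters' processing notes, tools included fastp 0.23.0 and Subread 1.5.1 (featureCounts). No source used here gives the aligner, the build, the strand setting or how multiply mapped reads were handled. Chromosome numbers were assigned from a RefSeq gene table (27116 symbols matched; 92.3% lay on their majority chromosome), and positions are those of the count table. Even values made up 66.2 to 69.3% of nonzero counts per library, so a fragment may often count as 2. The 2 rows that name no gene (0.087 to 0.116% of counts) were left out.

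Genes were kept by filterByExpr (count 10, total 15), which left 16300. Libraries were scaled by TMM, and edgeR 4.0.16 (R 4.3.3) fitted 4 group means to all 12 libraries together, leaving 8 residual degrees of freedom, before its quasi-likelihood test. Benjamini-Hochberg adjustment ran over every tested gene, the threshold was 0.05, and intervals cover 95%. The 5 contrasts were OE minus OE_NC, si minus si_NC, the mean of OE and OE_NC minus the mean of si and si_NC, OE_NC minus si_NC, and the difference of the first 2. The edgeR test was tested on simulated counts in all 5 contrasts, and in OE minus OE_NC the Wald test, limma with 1 added, the replicate block and the length offset were as well. Alternatives were size factors and the Wald test of DESeq2 1.42.0, library totals, other filters, a fit of only the groups compared, a replicate block, limma 3.58.1 on log2 RPKM with 1 or 0.1 added, halved counts, an offset for exon length (spline, 4 degrees of freedom) and leaving out each library.

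The sensing genes and the 9 gene lists and 5 marker lists (197 symbols, 9 unmatched, 1 matched by gene ID) were chosen with earlier results of these data known. Named were all sensing genes, up to 4 called genes per list by adjusted p, and the 3 genes most like each called sensing gene. Some genes the rule selects are not reported here, and the OAS and TLR genes and IFNB1 were named after their values were seen.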

Additional observations from a re-analysis of the deposited data

How the results depend on the processing

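The sensing genes called, 3 in OE minus OE_NC, came to 5 with the DESeq2 Wald test and with no filter on low counts, and to 1 with limma on log2(RPKM + 0.1). Those called in si minus si_NC, 0, came to 1 with no filter. Those called in plasmid minus interference, 5, came to 1 with the filter of 5 CPM, which drops 5 of the 10 genes. They came to 6 in the settings that added MAVS as lower. Without si replicate 3 and si_NC replicate 2 together they also came to 6, with TMEM173 added as higher. Those called in OE_NC minus si_NC, 2, came to 4 with the Wald test, with no filter and without si replicate 3 and si_NC replicate 2 together (chosen after seeing the data), and to 1 with the filter of 5 CPM and with only the groups compared. Over all genes, the calls in OE minus OE_NC (728) came to 1546 with the Wald test, 1679 with no filter, 476 with the exon length trend removed and 1621 with only the groups compared. In si minus si_NC (414) they came to 1125, 1208, 738 and 8 under these settings and to 1119 without the pair. The difference of changes (1371) came to 2305 without the pair. With 1 library left out, the genes called ranged from 19 to 758 in OE minus OE_NC, 56 to 1083 in si minus si_NC, 2942 to 3842 in plasmid minus interference, 1882 to 2833 in OE_NC minus si_NC and 588 to 2152 in the difference; the sensing genes called ranged from 0 to 5, 0 to 1, 3 to 5, 0 to 3 and 0 to 1 in the same order. Library totals moved the median of all genes by −0.135 and limma on log2(RPKM + 0.1) by −0.116 (log2) in the difference of changes. Changes of sign occurred for values that did not pass. TBK1 in OE turned to −0.011 with library totals and −0.0069 and −0.0074 with limma (1 and 0.1 added). In the difference, DDX58 turned to −0.070, −0.044 and −0.118 with those settings, −0.018 with the length trend removed and −0.307 without the pair. TLR3 there turned to −0.116, −0.040, −0.100, −0.0083 (halved counts) and −0.031 (length trend); MAVS to −0.0033, −0.0059 and −0.0037; TBK1 to 0.003 with no filter; TMEM173 to 0.062 with the replicate block; and IFIH1 to −0.023 without the pair. Leaving out 1 library turned the sign in OE of DDX58 (−0.039 to 0.223), TBK1 (−0.027 to 0.071) and TMEM173 (−0.130 to 0.465). It did so in si for ZBP1 (−0.034 to 1.12), DDX58 (−0.140 to 0.393) and TMEM173 (−0.149 to 0.550), and between controls for ZBP1 (−0.133 to 1.02), DDX58 (−0.057 to 0.483) and TMEM173 (−0.0067 to 0.668). In the difference it did so for IFIH1 (−0.315 to 0.640), DDX58 (−0.281 to 0.265), TLR3 (−0.049 to 0.106), MAVS (−0.051 to 0.268), TBK1 (−0.088 to 0.032) and TMEM173 (−0.403 to 0.293). The cause was not tested. Genes of the other lists were not refitted with libraries left out. The replicate numbers did not pair the samples (same-number correlations −0.257 to 0.279, other numbers −0.269 to 0.332; 5 of 12 libraries correlated best with their own number). The replicate block gave 803 genes and 4 sensing genes in OE, 396 and 0 in si, 3961 and 6 with plasmid against interference, 3150 and 2 between controls, and 1247 and 0 in the difference. Low counts limit ZBP1, DHX58, IFIH1 and TMEM173 most.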

Other observations

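Genes of the eIF2 alpha branch, on which EIF2AK2 acts, differed between plasmid and interference groups. Of 12 listed genes, 0 passed in OE (4.47% of all tested genes did), and 2 had an unadjusted edgeR p under 0.05 (22.9% of all). In si 0 passed (2.54% of all tested genes did), and 4 had an unadjusted edgeR p under 0.05 (18.9% of all). With plasmid 6 were higher and 2 lower than with interference (24.2% of all tested genes were called in that contrast). ATF4, the transcription factor translated when eIF2 alpha is phosphorylated, averaged 439 ± 11.2 CPM in OE and 429 ± 4.04 CPM in OE_NC, and 340 ± 11.6 CPM in si and 306 ± 11.2 CPM in si_NC (SD, n = 3 each; plasmid minus interference log2 0.43 ± 0.04, edgeR adjusted p = 1.03e-05). Its targets DDIT3 (log2 0.50 ± 0.08, edgeR adjusted p = 0.000642) and TRIB3 (log2 0.92 ± 0.16, edgeR adjusted p = 0.000899) were also higher, and the kinase EIF2AK3 (PERK) was lower (log2 −0.42 ± 0.07, edgeR adjusted p = 0.000822).

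Of 11 genes of the small RNA machinery, 5 were lower with plasmid than with interference and 0 higher (12.8% of all tested genes were called lower and 11.4% higher). They included DICER1, which cuts double-stranded RNA into small RNAs (log2 −0.43 ± 0.05, edgeR adjusted p = 9.07e-05), TNRC6A (log2 −0.45 ± 0.05, edgeR adjusted p = 3.3e-05), AGO2, the slicing Argonaute (log2 −0.36 ± 0.06, edgeR adjusted p = 0.00119), and XPO5 (log2 −0.30 ± 0.07, edgeR adjusted p = 0.00469). In si 0 of the 11 passed with edgeR (2.54% of all tested genes did), and 1 had an unadjusted p under 0.05 (18.9% of all). In OE 1 rose (2.22% of all tested genes were called higher), TNRC6A (159 ± 1.30 CPM in OE and 130 ± 9.05 CPM in OE_NC, SD, n = 3 each; log2 0.29 ± 0.07, edgeR adjusted p = 0.0353). Of 15 brakes on sensing, 2 were higher and 2 lower with plasmid (24.2% of all tested genes were called in either direction): TNFAIP3, which encodes the ubiquitin editor A20 (log2 1.04 ± 0.11, edgeR adjusted p = 2.41e-05), and RNASEH2A (log2 0.31 ± 0.08, edgeR adjusted p = 0.0119) were higher, and the DNA exonuclease TREX1 (log2 −0.61 ± 0.15, edgeR adjusted p = 0.00832) and DNAJC3 (log2 −0.26 ± 0.05, edgeR adjusted p = 0.00351) were lower. In si 0 of the 15 passed with edgeR (2.54% of all tested genes did), and 4 had an unadjusted p under 0.05 (18.9% of all). In OE 1 of the 15 rose (2.22% of all tested genes were called higher), the deubiquitinase CYLD (log2 0.39 ± 0.10, edgeR adjusted p = 0.0422).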
